A study of Arabidopsis thaliana with 12 samples.

Results

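The genes described here are 3 nuclear genes of Arabidopsis thaliana for proteins of the chloroplast ribosome, PRPL5 (AT4G01310), PRPL17 (AT3G54210) and PRPS10 (AT3G13120). They were taken from the array by 1 rule, that the platform annotation of a probe lists that gene and no other. Each gene had 1 such probe, which makes 3 of the 691 genes with a probe of their own and 3 of the 3439 probes in the table. Total RNA was measured in 6 samples of the psae2 mutant, described in the labels as without PSI-E2, a protein of photosystem I, and in 6 samples of the wild type (WT). Both groups are of ecotype Columbia 0, and the labels give no other allele, agent or treatment. Tissue, age, growth conditions, the kind of mutant allele and whether plants were pooled are not stated in the labels, so the RNA could not be checked against the markers of a stated tissue. The 12 markers of seed, root, guard cell, phloem, epidermis and xylem that were listed had 0 probes of their own, and 0 probes list the targeted gene PSAE2, so neither check was available.

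Chloroplasts keep a ribosome of bacterial type, which translates the proteins encoded in the plastid genome, among them core subunits of both photosystems. Its RNA and part of its proteins are plastid-encoded, whereas most of its proteins are encoded in the nucleus, made in the cytosol and imported. Transcript levels of the nuclear genes therefore describe 1 side of the supply for this ribosome, and say nothing of the protein or of translation. PRPL5 and PRPL17 belong to the large subunit and PRPS10 to the small one. In bacteria, the L5 protein binds the smallest ribosomal RNA, L17 sits near the exit of the peptide tunnel, and S10 lies in the head of the small subunit.

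The values are array intensities as the authors deposited them. Their scale is not stated, and they were taken as linear. Column medians differed between samples, from 0.304 to 0.448, so the main comparison used log2 intensities that were quantile-normalized across the 12 samples. Samples carry a number from 1 to 6 within each group. Within a group, the deviations from the group mean correlated at 0.24 to 0.71 across the array between samples 1 and 2, 3 and 4, or 5 and 6, and at -0.68 to -0.12 between the other samples. The same number in psae2 and WT also deviated together, at 0.34 to 0.53. The fit over 12 samples therefore treats as independent some samples that may be repeats, and a fit in which these numbers were averaged, leaving 3 values per group, is given beside it. Nothing in the labels says that the samples came from separate plants, so the p-values measure the spread between these samples, which may be technical. In bulk RNA, fewer cells of a type and less RNA per cell cannot be told apart.

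None of the 3 genes passed the test between psae2 and WT. Over 12 samples, 0 of 3 had an adjusted p under 0.05 in limma, where 22.3% of the 3009 tested entries (probes, or genes with their probes averaged) passed. With numbers averaged it was again 0 of 3, against 2.63% of all entries. PRPL5 had the largest fitted difference of the 3, a log2 difference of 0.15, followed by PRPL17 with 0.08 and PRPS10 with -0.04. Of all tested entries, 63.6% had a difference of larger size than PRPL5, 77.8% than PRPL17 and 88.3% than PRPS10.

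PRPL5 had deposited intensities of 0.510 to 0.575 in psae2 with a median of 0.530, against 0.376 to 0.509 in WT with a median of 0.401. On this scale the groups did not overlap, and the WT samples 1 and 2 (0.509 and 0.507) lay just under the lowest psae2 sample. Such a separation with psae2 above WT was found for 12.7% of the tested entries. The array median was also the higher in psae2 at 6 of 6 numbers, and it ran from 0.346 to 0.448 in psae2 and from 0.304 to 0.379 in WT. After quantile normalization the PRPL5 values overlapped, with a mean of -0.99 ± 0.17 in psae2 and -1.14 ± 0.07 in WT (SD, n = 6 each, normalized log2 intensity). The fitted fold of psae2 over WT was 1.11, with a 95% interval of 0.977 to 1.25 over 12 samples and of 0.889 to 1.38 with numbers averaged. The adjusted p was 0.231 over 12 samples and 0.591 with numbers averaged (limma).

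**Figure D1:**
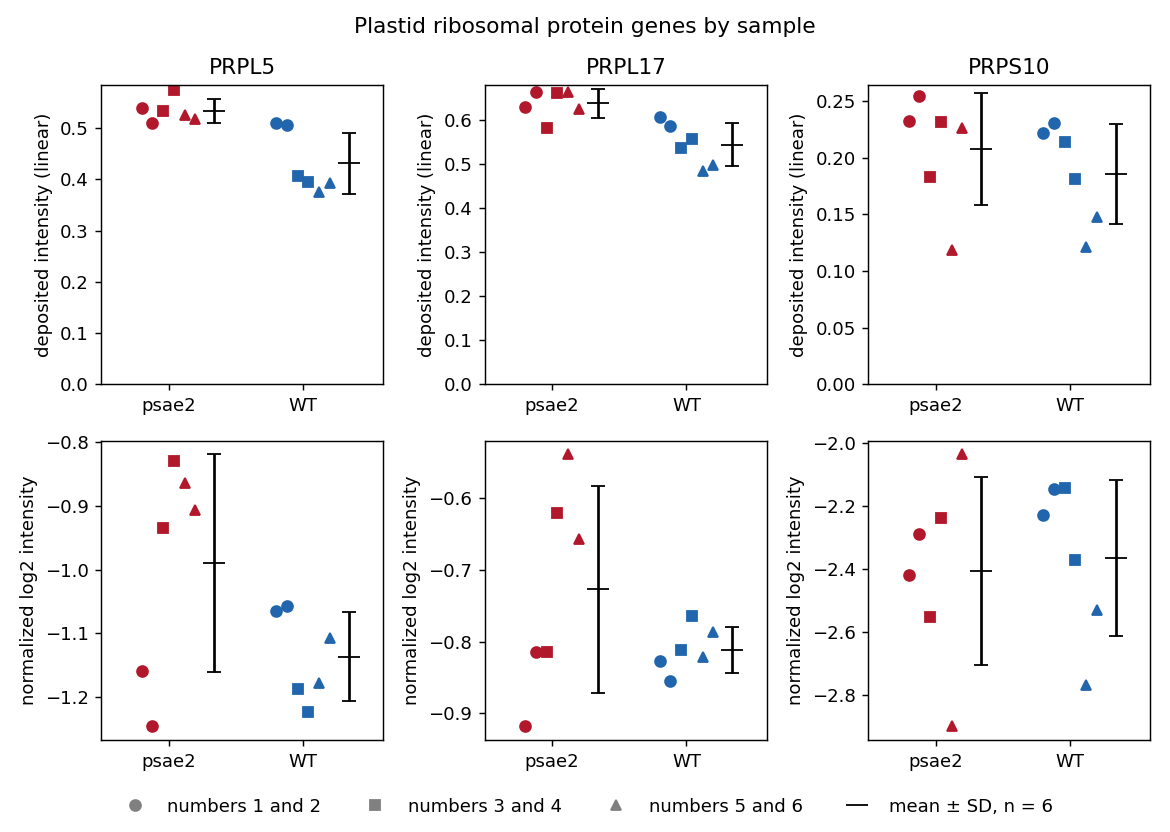
Intensity of PRPL5, PRPL17 and PRPS10 in the 6 psae2 and the 6 WT samples, as deposited on a linear axis (top) and as normalized log2 intensity (bottom), with the marker showing the sample number and the bar giving mean ± SD (n = 6). The psae2 values of PRPL5 lie above all WT values as deposited, from 0.510 to 0.575 against 0.376 to 0.509, and overlap with them after normalization.

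After normalization the PRPL5 difference was not of 1 sign across sample numbers. As deposited, psae2 was the higher at 6 of 6 numbers, as for 35.6% of all tested entries. In normalized log2 intensity, the psae2 samples 1 and 2 were low, at -1.16 and -1.25, while the psae2 samples 3 to 6 lay between -0.93 and -0.83. In WT it was samples 1 and 2 that were the highest, at -1.07 and -1.06, and samples 3 to 6 lay between -1.22 and -1.11. The log2 difference of psae2 minus WT was accordingly -0.14 for numbers 1 and 2, 0.32 for numbers 3 and 4 and 0.26 for numbers 5 and 6. When numbers 1 and 2 were dropped from both groups, PRPL5 passed over the remaining samples, at a log2 difference of 0.29 (adjusted p = 0.00927 in limma, where 22.4% of entries passed). That fit counts resembling samples as separate ones, and with the remaining numbers averaged, leaving 2 values per group, PRPL5 did not pass (adjusted p = 0.303 in limma). In this smaller fit 0 of 3009 entries passed, and 503 had an unadjusted p under 0.05. Numbers 1 and 2 were the pair with a difference below 0. Without numbers 3 and 4, PRPL5 was at 0.06 and did not pass (adjusted p = 0.769 in limma). Without numbers 5 and 6 it was at 0.09 and did not pass (adjusted p = 0.594 in limma). Whether the difference depends on the sample numbers was not tested.

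PRPL17 had deposited intensities of 0.582 to 0.665 in psae2 with a median of 0.647, against 0.483 to 0.608 in WT with a median of 0.546. The groups overlapped through psae2 sample 3 (0.582), which lay below WT samples 1 and 2 (0.608 and 0.586). In normalized log2 intensity the mean was -0.73 ± 0.14 in psae2 and -0.81 ± 0.03 in WT (SD, n = 6 each). On this scale the psae2 samples spread from -0.92 to -0.54, whereas the 6 WT samples lay within a narrower band, from -0.86 to -0.76. As deposited the order was the reverse, with an SD of 0.033 in psae2 and of 0.049 in WT (n = 6 each). The fold of psae2 over WT was 1.06, with a 95% interval of 0.950 to 1.18 over 12 samples and of 0.876 to 1.28 with numbers averaged. The adjusted p was 0.445 over 12 samples and 0.731 with numbers averaged (limma). By number, the log2 difference was -0.03 for numbers 1 and 2, 0.07 for numbers 3 and 4 and 0.21 for numbers 5 and 6.

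PRPS10, the small-subunit gene, had deposited intensities of 0.118 to 0.255 in psae2 with a median of 0.229, against 0.121 to 0.231 in WT with a median of 0.197. The groups overlapped over nearly all of their range. The psae2 sample 5 held the lowest value of its group (0.118), while sample 6 (0.226) lay close to the group's median. The WT samples 5 and 6 were the lowest of their group, at 0.121 and 0.147. In normalized log2 intensity the mean was -2.41 ± 0.30 in psae2 and -2.36 ± 0.25 in WT (SD, n = 6 each). The fold of psae2 over WT was 0.972, with a 95% interval of 0.775 to 1.22 over 12 samples and of 0.756 to 1.25 with numbers averaged. The adjusted p was 0.881 over 12 samples and 0.918 with numbers averaged (limma). The log2 difference changed sign without any of 3 single samples, at 0.06 without psae2 sample 5 and at 0.0035 and 0.0039 without WT samples 2 and 3.

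All 3 probes were measured above a floor set at the 5th percentile of each array's positive values (0.0638 to 0.105) in all 12 samples. PRPS10 was the dimmest, at 0.118 to 0.255, and lay below every array median (0.304 to 0.448). PRPL5 and PRPL17 lay above the median of the same array in all 12 samples. In sample 5, PRPS10 was at 0.118 in psae2 and 0.121 in WT, against floors of 0.0660 and 0.0708. The 3 probes differed in how closely samples repeated, and whether signal level bears on this was not tested. The residual SD on the log2 scale was 0.13 for PRPL5, 0.10 for PRPL17 and 0.27 for PRPS10, against a median of 0.22 over the 3009 tested entries. For PRPL5, 92.2% of the spread around the group means lay between the pairs of resembling numbers, and for PRPL17 69.5% did. For PRPS10 it was 34.9%, so most of its spread lay within the pairs of resembling numbers. The median over all tested entries was 79.6%.

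**Figure D2:**
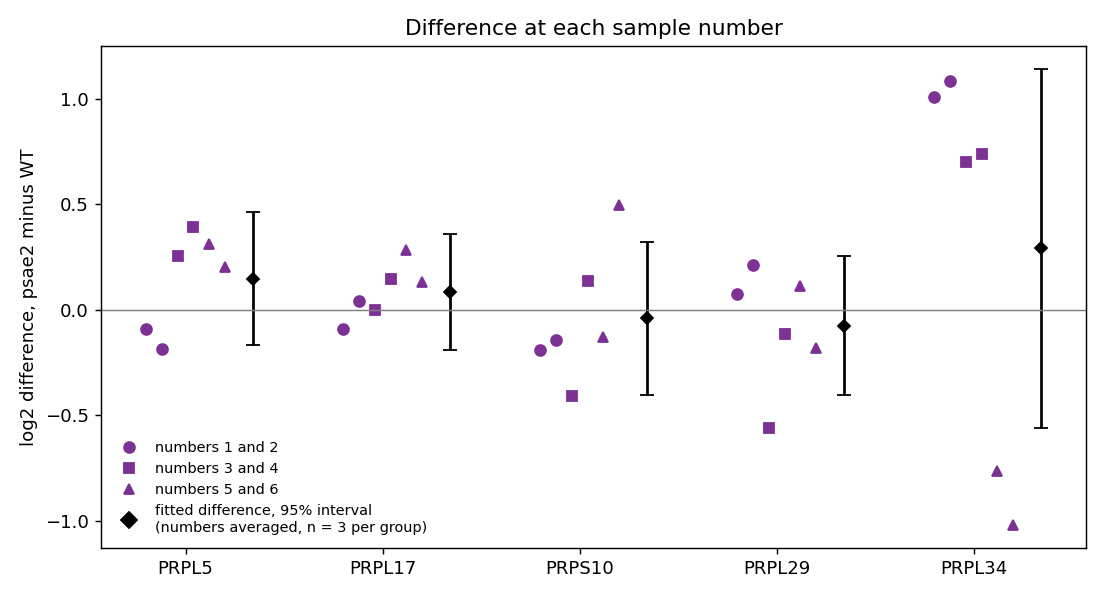
Difference of psae2 minus WT in normalized log2 intensity at each of the 6 sample numbers for the 5 tested plastid ribosomal protein genes, with the fitted difference and its 95% interval from averaged numbers (diamonds, n = 3 per group). All 5 intervals include 0, and PRPL34 has the widest, with differences above 0 at numbers 1 to 4 and below 0 at numbers 5 and 6.

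PRPL5 and PRPL17 varied together over the 12 samples, with a Pearson r of 0.72 and a Spearman rho of 0.40 of normalized log2 intensity (n = 12). These coefficients are descriptions, since the samples share numbers and scaling and are not independent. Within the groups the relation depended on the scale. After normalization r was 0.78 in psae2 and -0.67 in WT (n = 6 each; rho 0.84 and -0.83), whereas as deposited it was 0.09 in psae2 and 0.88 in WT (rho -0.31 and 0.94). In normalized log2 intensity, the psae2 samples 4, 5 and 6 were the highest for PRPL17 and among the 4 highest for PRPL5, and samples 1 and 2 were the 2 lowest for PRPL5. In WT, samples 1 and 2 were the highest for PRPL5 and the lowest for PRPL17. After normalization, opposite signs in the groups were common for PRPL5. It had them with 70.0% of the 524 other single-gene entries above the floor in all samples that gave an r in both groups, against 36.1% for PRPL17 and 39.1% for PRPS10. Of all 525 such entries, 1.90% had a higher r with PRPL5 than PRPL17 had. From the side of PRPL17, 5.71% had a higher r with it than PRPL5 had. The median r of PRPL5 with them was 0.07.

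PRPS10 did not follow the large-subunit genes in these values, with an r of -0.07 with PRPL5 and of -0.21 with PRPL17 (n = 12; rho -0.0070 and -0.06). Its signal was also the dimmest among the members, and whether this bears on the coefficients was not tested. In the deposited intensities on a log2 scale the coefficients were 0.50 with PRPL5 and 0.49 with PRPL17, and that of PRPL5 with PRPL17 was 0.89. Without normalization, differences in level between arrays remain in the values. The median r of PRPL5 with the other 525 entries was then also 0.50, and the source of these coefficients was not tested. On that scale the coefficients of PRPS10 within psae2 were 0.10 with PRPL5 and -0.0096 with PRPL17 (n = 6), and within WT they were 0.79 and 0.90 (n = 6).

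**Figure D3:**
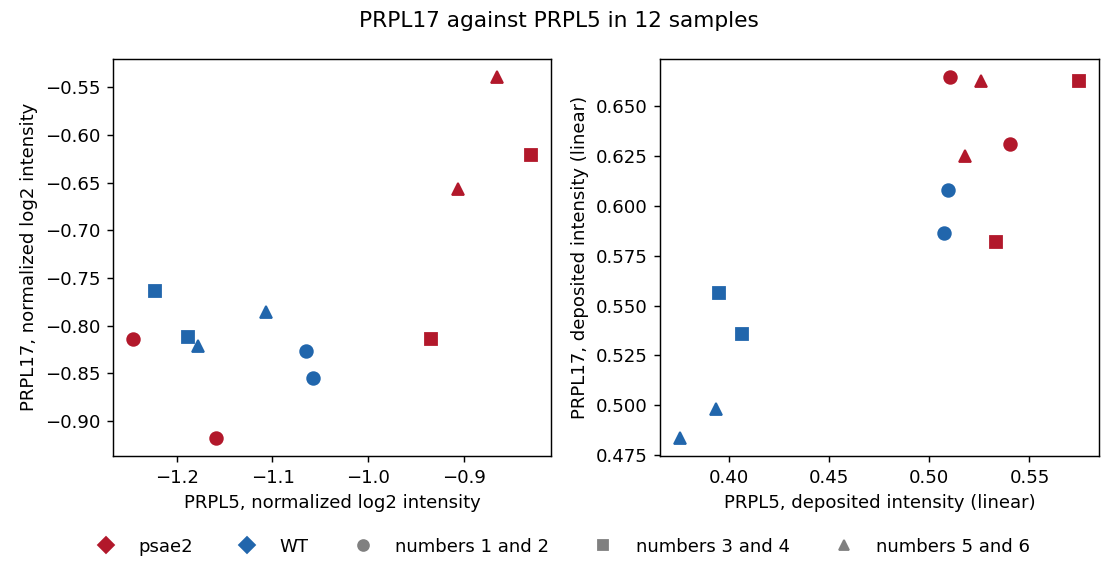
PRPL17 against PRPL5 in the 12 samples, as normalized log2 intensity (left) and as deposited intensity on linear axes (right), with colours for psae2 and WT and markers for sample numbers. On the left, psae2 samples 4, 5 and 6 stand at the upper right, and the WT samples run from upper left to lower right (r = -0.67, n = 6). On the right, the WT samples run from lower left to upper right (r = 0.88 of log2 values, n = 6).

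The genes whose pattern over the 12 samples was most like that of each member were taken by Pearson r of normalized log2 intensity among single-gene entries. For PRPL5 they were AT1G17160 (r = 0.86), AT3G09050 (0.77) and AT4G16060 (0.77). Of these, AT3G09050 and AT4G16060 were higher in psae2 over 12 samples, with log2 differences of 0.49 and 0.69 (adjusted p = 0.00398 and 0.0263 in limma), and not with numbers averaged (0.169 and 0.146). For PRPL17 they were AT5G13410 (r = 0.95), AT2G23390 (0.87) and AT2G40980 (0.85). For PRPS10 they were AT5G62360 (r = 0.78), AT3G44570 (0.69) and AT1G16080 (0.67). None of the genes named for PRPL17 and PRPS10 passed over 12 samples in limma. Over all tested entries, the shares that passed were 22.3% over 12 samples and 2.63% with numbers averaged. Being the highest of 525 coefficients over 12 points, these values of r were picked for their size. Each r also takes in the difference between the groups. The calls of these genes are therefore not independent of how the genes were picked.

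Of a list of 41 nuclear loci for plastid ribosomal proteins, 6 had a probe of their own, the 3 genes above and those listed as PRPL29 (AT5G65220), PRPL34 (AT1G29070) and PRPS6 (AT1G64510). The reference table holds no symbol for any of the 6, so the names rest on that list. Of the 6, 5 were tested, and 0 passed in limma over 12 samples, against 22.3% of all tested entries. An unadjusted p under 0.05 was found for 0 of 5, against 35.7% of all entries. The median log2 difference was 0.08, against 0.01 over all tested entries. With numbers averaged 0 of 5 passed as well, against 2.63%. After normalization each of the 5 had differences of both signs among the 3 pairs of numbers, which held for 45.6% of all tested entries. As deposited, PRPL5 and PRPL17 were higher in psae2 at 6 of 6 numbers, as were 35.6% of all entries, with ratios of psae2 over WT of 1.01 to 1.45 for PRPL5 and 1.04 to 1.37 for PRPL17. The other 3 genes were higher at 4 of 6 numbers as deposited.

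PRPL29, of the large subunit, had deposited intensities of 1.67 to 2.52 in psae2 with a median of 2.09, against 1.77 to 2.32 in WT with a median of 2.02. The groups overlapped, and the log2 difference was -0.08, with an adjusted p of 0.648 over 12 samples and 0.804 with numbers averaged (limma). PRPL34, also of the large subunit, was dim, and 2 of 6 psae2 and 2 of 6 WT samples lay under the floor. Its deposited intensity was 0.146 to 0.253 in psae2 samples 1 to 4 and 0.0129 and 0.0526 in psae2 samples 5 and 6. In WT it was 0 to 0.0921 in samples 1 to 4 and 0.112 and 0.137 in samples 5 and 6, the opposite order. Its log2 difference was therefore 1.05 for numbers 1 and 2, 0.72 for numbers 3 and 4 and -0.89 for numbers 5 and 6, in part against the floor. A range this wide between the pairs of numbers was exceeded by 1.83% of the tested entries. Over 12 samples its log2 difference was 0.29, with an adjusted p of 0.462, and of 0.691 with numbers averaged (limma). When numbers 5 and 6 were dropped from both groups it was 0.88 (adjusted p = 0.00667 in limma, where 18.2% of entries passed). In that fit 2 of the 4 remaining WT samples had been raised to the floor, so 0.88 is not an exact difference. With the remaining numbers averaged PRPL34 did not pass (adjusted p = 0.192 in limma), where 0 of 3009 entries passed and 463 had an unadjusted p under 0.05. Numbers 5 and 6 were the pair with a difference below 0. Without numbers 1 and 2 PRPL34 was at -0.09, and without numbers 3 and 4 at 0.08. It passed in neither fit (adjusted p = 0.863 and 0.928 in limma). PRPS6, of the small subunit, was listed at 0 in all 12 samples and was not tested.

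The members' differences depended on the scaling. With the values as deposited, PRPL5 and PRPL17 passed over 12 samples, with log2 differences of 0.32 and 0.23 (adjusted p = 0.0257 and 0.0491 in limma), where 28.1% of entries passed and 23.6% did so with psae2 higher. The median difference over all tested entries was then 0.17, so that PRPL5 stood 0.14 and PRPL17 0.06 above it. As deposited and with numbers averaged, neither passed (adjusted p = 0.310 and 0.392), where 0.964% of entries passed. With arrays centred on their medians, the log2 differences were 0.14 for PRPL5, 0.05 for PRPL17 and -0.03 for PRPS10, and none of the 3 passed, against 23% of all entries. PRPS10 was at 0.16 as deposited, close to the median of all entries, and did not pass.

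**Figure D4:**
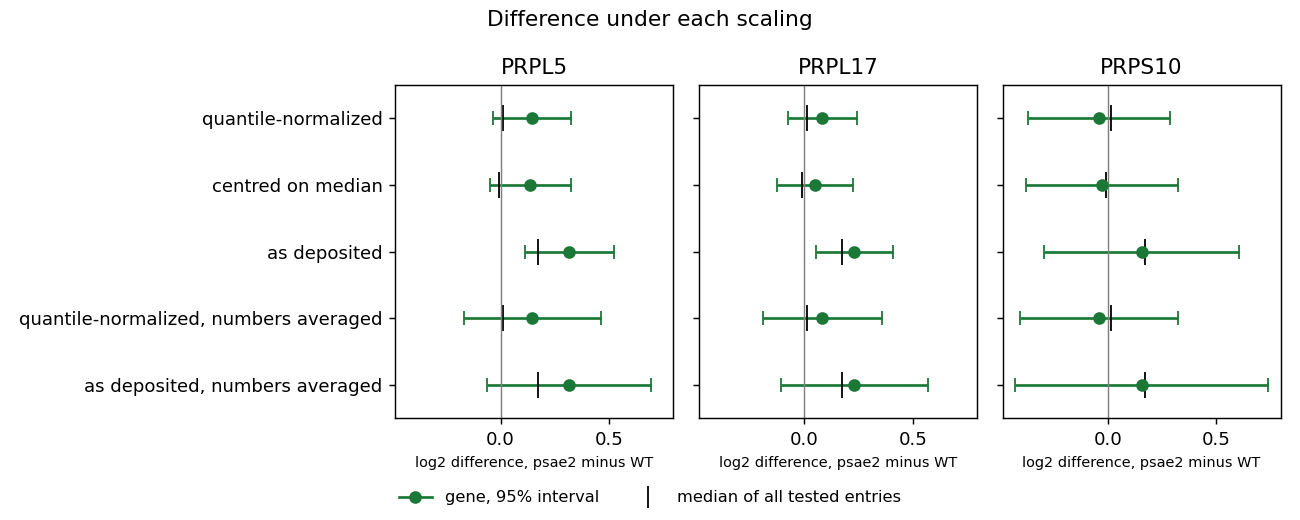
Log2 difference of psae2 minus WT for PRPL5, PRPL17 and PRPS10 with its 95% interval under each scaling, over 12 samples (upper 3 rows) and with numbers averaged (lower 2 rows), beside the median difference of all tested entries (black tick). As deposited, the intervals of PRPL5 and PRPL17 lie above 0 over 12 samples and include the median of 0.17.

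Other genes of plastid protein synthesis were nearly absent from single-gene probes. Of 11 plastid translation factors, 11 genes of plastid ribosome assembly and ribosomal RNA processing, and 6 plastid sigma factors, 0 had a probe of their own. A search by ribosomal protein symbols or synonyms found 60 other loci, and 0 of them had a probe of their own. Genes without such a name in the reference table would be missed by that search. Of the first list 3 loci, and of the second 1, were listed on probes together with other genes, whose signal cannot be assigned to 1 of them. Probe 2901 lists AT2G24060 and AT4G30690, both for plastid initiation factor IF3, together with AT1G34360. It was higher in psae2, with deposited intensities of 0.227 to 0.394 and a median of 0.308, against 0.146 to 0.211 and a median of 0.189 in WT. The log2 difference was 0.51 ± 0.11 (SE), with an adjusted p of 0.00563 over 12 samples and of 0.135 with numbers averaged (limma). Of all tested entries, 22.3% passed over 12 samples and 2.63% with numbers averaged. As deposited, 12.7% had psae2 above WT without overlap, and 35.6% had psae2 above WT at 6 of 6 numbers. For probe 2901 the normalized difference was above 0 at 6 of 6 numbers, at 0.59, 0.49 and 0.45 in the 3 pairs of numbers. The share of entries with 1 sign at all 6 numbers was not counted after normalization. Differences of both signs among the 3 pairs of numbers were found for 45.6% of all tested entries on that scale. The shared probes were chosen after their values were seen. Probe 4447, which lists the same 2 IF3 loci without the third gene, was under the floor in all 12 samples. Probe 425, shared by FUG1 (plastid initiation factor IF2) and AT4G11160, had a log2 difference of 0.05, with an adjusted p of 0.807 over 12 samples and of 0.904 with numbers averaged (limma). Probe 2692, shared by the RNA helicase gene RH39 and AT3G06980, had one of -0.08, with an adjusted p of 0.462 over 12 samples and of 0.737 with numbers averaged (limma). After normalization its psae2 value was the higher at 0 of 6 numbers, and the share of entries of which this holds was not counted.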

How the data were processed

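Intensity values of 3439 probes in 12 samples were used as the authors deposited them. Their scale, background correction, scaling and array chemistry are not given in the labels or the file. All columns belonged to a sample. The annotation listed 1 gene for 692 probes, several for 870 and none for 1877.

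Values were raised to a floor (the 5th percentile of an array's positive values), the 429 probes under it on all arrays were left out, and log2 values were quantile-normalized. limma 3.58.1 in R 4.3.3 compared psae2 with WT over 3009 entries with Benjamini-Hochberg adjustment at 0.05. The fit was run on simulated data in which all samples were independent. That run cannot show how the fit behaves where samples resemble each other, as they do here. Figures used matplotlib 3.10.9. The number of arrays limits the precision.

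Deviations from the group mean correlated at 0.34 to 0.53 between psae2 and WT samples of the same number, and among the samples of the other group 12 of 12 correlated best with their own number. The labels do not say what the numbers mark, so this pairing is a hint from the data. The correlation was 0.24 to 0.71 between samples 1 and 2, 3 and 4, or 5 and 6 of a group and -0.68 to -0.12 between its other samples.

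The members and lists were chosen with earlier results of these data known. Named were the members, other listed plastid ribosomal protein genes with a probe of their own, and the 3 entries most like each member. The probes shared by several genes lay outside this rule and were chosen after their values were seen. Alternatives covered scaling, floor, filter, variance model, exact tests, the number as a block, averaged numbers and left-out samples. Sequences were not used here.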

Additional observations from a re-analysis of the deposited data

How the results depend on the processing

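Over all alternatives, the log2 difference of PRPL5 ran from 0.0581 to 0.317 and that of PRPL17 from 0.0225 to 0.232. PRPL5 passed with the values as deposited (0.317), with these and the replicate number as a block (0.317, adjusted p = 0.0217) and without numbers 1 and 2 (0.290), but not with the remaining numbers averaged. PRPL17 passed with the values as deposited (0.232) and with these and the replicate block (0.232, adjusted p = 0.0288). On normalized values the replicate block changed the call of no plastid ribosomal protein gene (PRPL5 0.146, adjusted p = 0.246). PRPS10 (-0.04) was above 0 in 11 settings, none of which passed: 0.155 as deposited (also with averaged numbers or the replicate block), 2.21e-05 with zeros missing and no floor, 0.0225 and 0.00794 without numbers 1 and 2 or 3 and 4 (each also with the others averaged), and in 3 of 12 left-out samples (-0.121 to 0.0586). With 1 sample left out PRPL5 was 0.114 to 0.198 and PRPL17 0.0461 to 0.122. PRPL29 was 0.0355 as deposited (same with averaged numbers or the block) and 0.0545 without numbers 3 and 4 (same with the others averaged). PRPL34 was -0.107 with zeros missing and -0.0869 without numbers 1 and 2, and probe 425 -0.0478 without numbers 3 and 4, in each case also with the others averaged where numbers were left out. The 0 of 5 plastid ribosomal protein genes became 2 as deposited, 2 with the block added, and 1 without numbers 1 and 2 (PRPL5) or 5 and 6 (PRPL34); it was 0 to 0 with 1 sample left out. The 671 entries called became 1010 with the replicate block, 79 with averaged numbers, 44 with these and the pair as a block, 181 with the pair as a random block, 304 without numbers 3 and 4, 29 as deposited with averaged numbers and 1396 as deposited with the block. With 2 numbers left out and the others averaged it was 0 (limma; 235 to 503 at an unadjusted p under 0.05); leaving out 1 sample gave 559 to 686. Of the calls, 358 of 671 were higher in psae2 after normalization and 711 of 846 as deposited. Probe 2901 lost its call with averaged numbers, also with a block (0.0713) or as deposited (0.119), with the random block (0.130) and with 2 numbers left out and the others averaged (0.271 to 0.590), and kept it in the other 24 settings. As deposited, PRPS10 had an r of 0.495 with PRPL5 and of 0.490 with PRPL17. The deposited-value fits with averaged numbers or a block, and the averaged fits with numbers left out, were chosen after seeing the data. Beyond scaling and the samples used, the cause was not tested. Exact tests gave two-sided p of 0.0758 for PRPL5, 0.175 for PRPL17 and 0.794 for PRPS10 (regrouping 12 samples). With sign flips over 6 numbers they gave 0.188, 0.188 and 0.75. Both tests count resembling numbers as separate ones, though these may be repeats. In the 10 sets of 6 values of the tested genes, Dixon's ratio set no sample apart. This ratio looks for 1 sample apart, so it can miss 2 resembling samples that deviate together. The lists without a probe of their own gave no value to recompute. Dim signal limits PRPL34 and PRPS6, and PRPS10 lay below every array median.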
